A study of Mus musculus with 17 samples.

Results

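Potassium channel genes were followed across the mouse dorsal root ganglion (DRG) as all genes whose symbol begins with Kcn, a rule that takes in pore-forming subunits and the auxiliary subunits named with them. The deposited tables held 94 such genes among 19152, and 70 of the 94 had a mean of at least 1 FPKM (mapped fragments scaled to transcript length and to library size) in at least 1 of the 4 groups. These 70 were tested among the 13408 genes that met the same level, and the 24 remaining Kcn genes were described by level only. RNA-Seq was performed on 17 libraries, each made from 4 lumbar ganglia (L4 and L5 of both sides) of 1 mouse. The 4 groups were Mtorfl/fl mice at baseline (n = 4), Mtorfl/fl mice 7 days after bilateral spared nerve injury (SNI, n = 5), Adv-Cre::Mtorfl/fl mice at baseline (Mtor-cKO, n = 4) and Mtor-cKO mice 7 days after bilateral SNI (n = 4). Baseline mice were labelled untreated, and no group had sham surgery. All mice were labelled C57BL/6 and carried the floxed Mtor allele, and the Mtorfl/fl controls had no Cre. The Cre was driven by the advillin gene (Avil), so deletion was aimed at primary sensory neurons, and glia, immune cells and vessels of the same ganglion kept Mtor and were sequenced with the neurons. In such whole-tissue libraries, fewer cells of a type and less RNA per cell cannot be told apart.

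Potassium channels let potassium leave the cell and so set the resting potential, end each action potential and limit repetitive firing of sensory neurons. Voltage-gated channels (the Kv, EAG and KCNQ families) open on depolarization, and modifier subunits (Kcnf, Kcng, Kcns and Kcnv genes) form no channel alone but alter the partners they join. KChIP proteins (Kcnip genes) bind Kv4 channels, which carry the fast A-type current, and Kv beta subunits bind Kv1 channels. Inward rectifiers (Kir) and 2-pore channels (K2P) act near rest, whereas the BK, SK and Slack channels respond to intracellular calcium or sodium. Loss of potassium current in DRG neurons is a well-known feature of neuropathic pain models.

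The libraries held 17060876 to 21076542 expected counts. Mtor, the deleted gene, ranged from 5.96 to 16.0 FPKM in the 9 Mtorfl/fl libraries and from 3.16 to 6.36 FPKM in the 8 Mtor-cKO libraries, and was lower in Mtor-cKO at baseline (log2 fold change with approximate SE -1.10 ± 0.29, adjusted p = 0.0154) and at day 7 (-0.91 ± 0.27, adjusted p = 0.0227). At each time the genotypes did not overlap. All 8 injury markers listed (Atf3, Sprr1a, Gal and others) rose after SNI in both genotypes, and each of 11 neuronal markers was detected in every group. Some libraries stood apart. Mtorfl/fl baseline replicates 1 and 2 had a summed level of 12 macrophage markers of 139.7 and 138 FPKM, against 472 and 677 FPKM in replicates 3 and 4 of the same group. The summed level of 7 skeletal muscle markers was 511 FPKM in Mtor-cKO baseline replicate 2 and 440.1 FPKM in Mtor-cKO day 7 replicate 1, and at most 76.4 FPKM elsewhere. Counts of Kcn genes are therefore also given without these libraries where that changed them by more than 1.5 times.

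Kcnk16 and Kcnmb1 carried the largest injury and genotype differences among Kcn genes and Kcnip1 shares the Kcnmb1 locus, so the bases before their annotated starts are shown first. Kcnk16 encodes a 2-pore channel. Kcnip1 (a KChIP) and Kcnmb1 (a BK beta subunit) were both lower without Mtor and lie at the same locus. Kcnmb1 sits on the opposite strand within the span of Kcnip1, between 19.5 and 30.1 kb from the 5′ end of Kcnip1 in the GENCODE M21 annotation. Their annotated exons shared 0 bases. The sequences are the 250 bases upstream of a transcript start in RefSeq (build GRCm38.p6), read 5′ to 3′ on the strand of the gene. The annotated gene spans of Kcnip1 and Kcnmb1 begin further upstream, so their windows lie wholly or partly within the genes. Most upstream and most downstream refer to the Kcnip1 windows found, and a window between them, without a match, is not shown. Capitals mark matches to any of 4 motifs searched on both strands, namely AP-1 (TGANTCA), CRE (TGACGTCA), GAS, the type of site bound by STAT proteins (TTCNNNGAA), and the E-box (CACGTG). Each motif reads the same on both strands. The windows are chr14:20269270-20269519 for Kcnk16, chr11:33993194-33993443 and chr11:33680683-33680932 for Kcnip1, all on the minus strand, and chr11:33962763-33963012 for Kcnmb1 on the plus strand.
Kcnk16: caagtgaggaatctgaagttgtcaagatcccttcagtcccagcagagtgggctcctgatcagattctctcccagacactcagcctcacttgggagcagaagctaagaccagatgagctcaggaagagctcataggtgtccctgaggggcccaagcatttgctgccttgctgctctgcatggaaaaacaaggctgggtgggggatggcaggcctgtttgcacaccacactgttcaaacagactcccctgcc
Kcnip1, most upstream start: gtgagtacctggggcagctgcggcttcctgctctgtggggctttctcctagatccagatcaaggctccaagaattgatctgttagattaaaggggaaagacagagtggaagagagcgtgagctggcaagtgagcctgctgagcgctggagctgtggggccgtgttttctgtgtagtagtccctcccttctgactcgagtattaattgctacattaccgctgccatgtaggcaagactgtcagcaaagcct
Kcnip1, most downstream start: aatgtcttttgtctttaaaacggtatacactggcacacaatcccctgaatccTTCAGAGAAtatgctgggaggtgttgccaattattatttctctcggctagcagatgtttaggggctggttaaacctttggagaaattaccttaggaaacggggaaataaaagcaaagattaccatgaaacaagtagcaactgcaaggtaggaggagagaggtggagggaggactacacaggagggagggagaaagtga
Kcnmb1: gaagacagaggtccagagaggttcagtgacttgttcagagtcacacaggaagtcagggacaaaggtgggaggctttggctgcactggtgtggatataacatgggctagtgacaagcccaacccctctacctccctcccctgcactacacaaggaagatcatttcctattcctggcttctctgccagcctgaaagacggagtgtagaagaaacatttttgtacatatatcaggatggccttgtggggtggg
The Kcnk16 and Kcnmb1 windows held no match, and the only match was a GAS element 198 bases before the most downstream Kcnip1 start. Windows were found for 52 of the 70 tested Kcn genes (74 windows). The GAS letters were present in 8.11% of these and in 5.89% of the 13699 windows of all tested genes. AP-1 letters were present in 4.05% and 4.51%, E-box letters in 6.76% and 8.04%, and CRE letters in 0% and 2.45%. A match describes letters only and was not measured as a binding site.

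In uninjured Mtorfl/fl ganglia, auxiliary subunits were the most abundant Kcn transcripts. Kcnab2, which encodes a Kv beta subunit, was highest at 258 ± 46.1 FPKM (mean ± SD, n = 4). It was followed by the KChIP genes Kcnip4 at 107 ± 8.62 FPKM and Kcnip3 at 89.2 ± 13.2 FPKM. The most abundant pore-forming gene was Kcna1 (Kv1.1, which sits beside the nodes of myelinated axons) at 63.9 ± 16.1 FPKM. Kcnip2 stood at 59.5 ± 6.68 FPKM, the Kv4 pore gene Kcnd1 at 59.2 ± 12.9 FPKM and the Kv beta gene Kcnab1 at 51.9 ± 6.10 FPKM. Kcnh6 (an erg channel of the EAG family, 49.3 ± 2.68 FPKM), Kcna2 (41.9 ± 12.1 FPKM) and Kcna6 (37.0 ± 3.79 FPKM) completed the 10 highest. Annotated exons of Kcna6 shared 39.6% of their bases with the antisense gene Gm26673, so its level is uncertain. From Kcna1 down to Kcna6, each step in this order was smaller than the larger SD of the neighbours. These 10 genes made up 58.7% of the summed Kcn level. The median tested Kcn gene was at 7.23 FPKM, and 30 of the 94 were above 10 FPKM.

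Families differed in how many members the ganglion expressed. All members were tested for Kv2 (2), Kv3 (4), KChIP (4), Kv beta (3), the BK pore gene Kcnma1 (1) and the sodium-activated and Slo3 genes Kcnt1, Kcnt2 and Kcnu1 (3). Of the others, 5 of 8 Kv1, 2 of 3 Kv4, 8 of 10 modifier, 6 of 8 EAG, 4 of 5 KCNQ, 9 of 15 Kir, 11 of 14 K2P, 3 of 4 BK beta, 3 of 4 SK and 2 of 5 MinK-related (Kcne) genes passed, and the channel regulator gene Kcnrg did not. Just inside the threshold lay Kcng3, with a highest group mean of 1.01 FPKM, Kcnk6 (1.11 FPKM), Kcne4 (1.24 FPKM) and Kcne1l (1.25 FPKM). Just outside lay Kcns2 (0.90 FPKM), Kcnn3 (0.72 FPKM), Kcnj9 (0.67 FPKM) and Kcnh3 (0.62 FPKM). The MinK-related genes Kcne1 and Kcne2 were listed at 0 in all 4 Mtorfl/fl baseline libraries. The muscle channel gene Kcna7 was at or below 0.09 FPKM except in Mtor-cKO baseline replicate 2 (0.53 FPKM) and Mtor-cKO day 7 replicate 1 (0.31 FPKM), the same libraries that were highest in muscle markers.

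**Figure D1:**
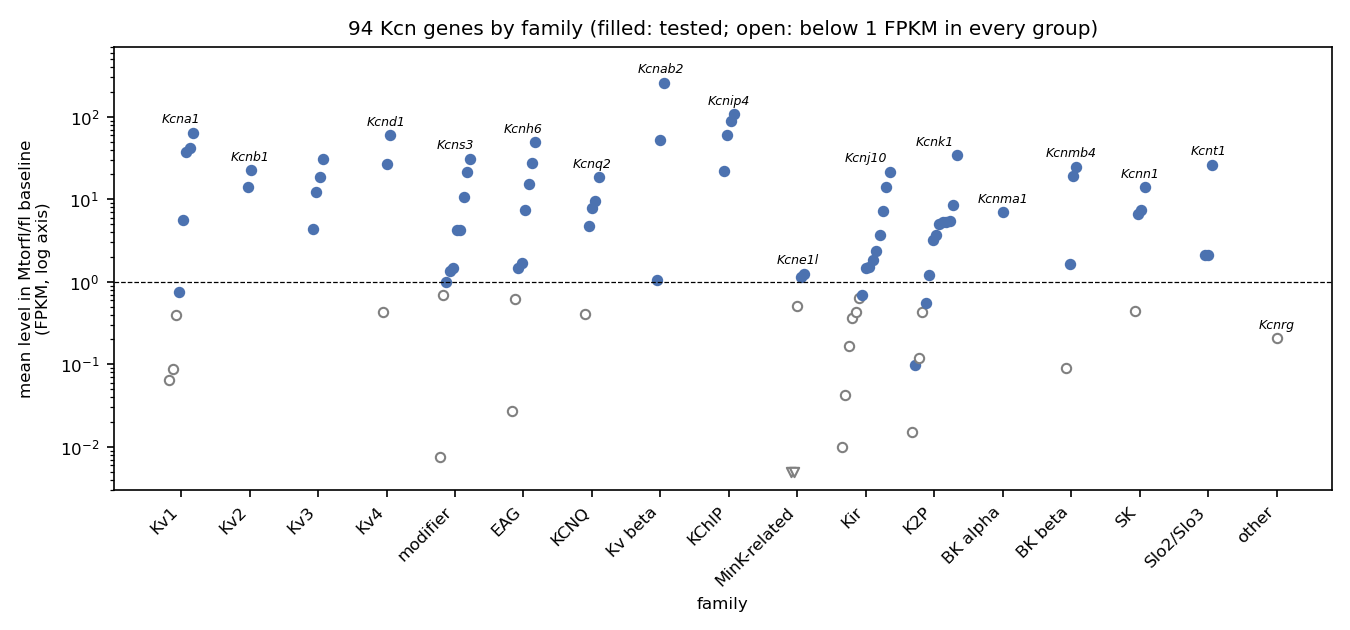
Mean level of each of the 94 Kcn genes in the 4 Mtorfl/fl baseline libraries (FPKM, log axis) by family. Filled points passed 1 FPKM in at least 1 group, open points did not, the dashed line marks 1 FPKM, and triangles mark 2 genes listed at 0. Kcnab2 is highest at 258 FPKM.

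Summed over all 94 genes, Kcn transcripts took 0.458% to 0.719% of the counts in a library. The share was 0.701%, 0.719%, 0.540% and 0.530% in Mtorfl/fl baseline replicates 1 to 4. It was 0.588%, 0.598%, 0.458%, 0.560% and 0.460% in Mtorfl/fl day 7 replicates 1 to 5. In Mtor-cKO mice it was 0.667%, 0.642%, 0.638% and 0.597% at baseline and 0.533%, 0.542%, 0.574% and 0.539% at day 7. The Mtorfl/fl groups overlapped and the Mtor-cKO groups did not. Within Mtorfl/fl baseline, replicates 3 and 4 had the lowest Kcn shares and the highest macrophage marker levels, and within Mtorfl/fl day 7 replicates 3 and 5 did. The summed macrophage level ran from 205 to 470.1 FPKM in Mtor-cKO at baseline and from 516 to 977 FPKM at day 7. Of the 12 markers, 1 (Mrc1) rose with injury in Mtor-cKO (against 4.57% of all genes) and 0 in Mtorfl/fl (against 4.66%) by edgeR. Their median log2 fold change with injury was 1.26 in Mtor-cKO and 0.79 in Mtorfl/fl. The part of these cells in the Kcn results was not tested.

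**Figure D2:**
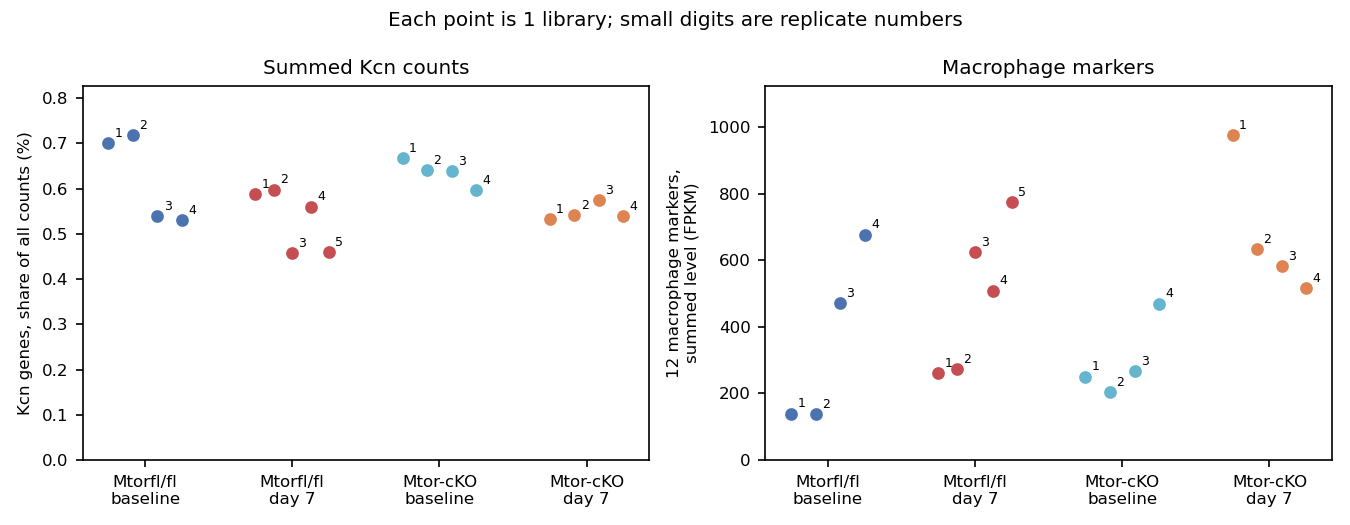
Share of all expected counts that fell on the 94 Kcn genes (left, %) and summed level of 12 macrophage marker genes (right, FPKM), with 1 point per library. Mtorfl/fl baseline libraries 1 and 2 have the highest Kcn shares (0.701% and 0.719%) and the lowest macrophage levels (139.7 and 138 FPKM).

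Nerve injury was compared within each genotype, as day 7 after SNI relative to untreated mice. Without a sham-operated group, nerve injury cannot be told apart from the surgery around it. In Mtorfl/fl mice, 9 of 70 Kcn genes fell (12.9%, against 2.58% of all 13408 genes tested) and 2 rose (2.86%, against 4.66%). In Mtor-cKO mice, 8 fell (11.4%, against 2.39% of all genes) and 1 rose (1.43%, against 4.57%). The median log2 fold change of the 70 genes was -0.16 in Mtorfl/fl and -0.27 in Mtor-cKO, beside -0.01 and 0.00 over all genes, and 53 and 55 of the 70 values were negative. With the additional requirement of more than 2-fold, Kcnk16 alone remained in each genotype, and 1.2% and 1.16% of all genes met both criteria. That count rose from 1 to 5, 6, 5 and 3 in Mtorfl/fl when baseline replicate 3, baseline replicate 4, day 7 replicate 1 or day 7 replicate 2 was left out, and to 2 in Mtor-cKO without Mtor-cKO baseline replicate 4. The Mtorfl/fl count leaned on the baseline libraries. Without replicates 1 and 2 of that group, 2 Kcn genes fell and 5 rose, and without replicates 3 and 4, 21 fell and 3 rose. In place of 11 calls there were 3 and 5 when Mtorfl/fl baseline replicates 1 and 2, respectively, were left out singly, and 4 and 6 when day 7 replicates 3 and 4 were. In Mtor-cKO, 2 calls (Kcnk16 and Kcnip2) remained of 9 without the 2 libraries richest in muscle markers. Leaving out a single library left 4 calls without Mtor-cKO baseline replicate 2 and 5 without baseline replicate 3, day 7 replicate 1 or day 7 replicate 2. The fits of Mtor-cKO injury without Mtorfl/fl baseline replicates 1 and 2, or 3 and 4, gave 16 and 17 calls, although those libraries enter only the estimate of spread and the scaling. DESeq2 gave 15 calls in Mtorfl/fl and 19 in Mtor-cKO.

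Kcnk16 (Gene ID 74571), a 2-pore channel gene known chiefly from the pancreas and also called TALK-1, had the largest injury difference. It was at 0, 0.18, 0 and 0.21 FPKM in Mtorfl/fl baseline replicates 1 to 4 and at 2.59, 1.80, 5.62, 2.84 and 2.97 FPKM at day 7. In Mtor-cKO mice it was at 0.06, 0.12, 0.06 and 0 FPKM at baseline and at 1.49, 2.09, 1.24 and 1.21 FPKM at day 7. Every injured library was above every uninjured library. These levels rest on few reads: the Mtorfl/fl libraries held 6 counts in all at baseline (n = 4) and 265 after SNI (n = 5), which relative to total counts is a ratio of 33.5 (95% exact interval 15.2 to 92.1, counting error only). In Mtor-cKO the counts were 4 and 106, a ratio of 25.3 (9.59 to 94.5). The rise passed the test in Mtorfl/fl (4.96 ± 0.59, adjusted p = 6.46e-05) and in Mtor-cKO (4.47 ± 0.67, adjusted p = 0.000724), and it did so under every alternative run. The study also listed Kcnk16 from these samples, so its direction is not independent evidence. At day 7 its mean was 3.16 ± 1.45 FPKM in Mtorfl/fl and 1.51 ± 0.41 FPKM in Mtor-cKO (-1.09 ± 0.40, adjusted p = 0.0558). The groups overlapped, and the difference between genotypes did not pass the threshold.

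**Figure D3:**
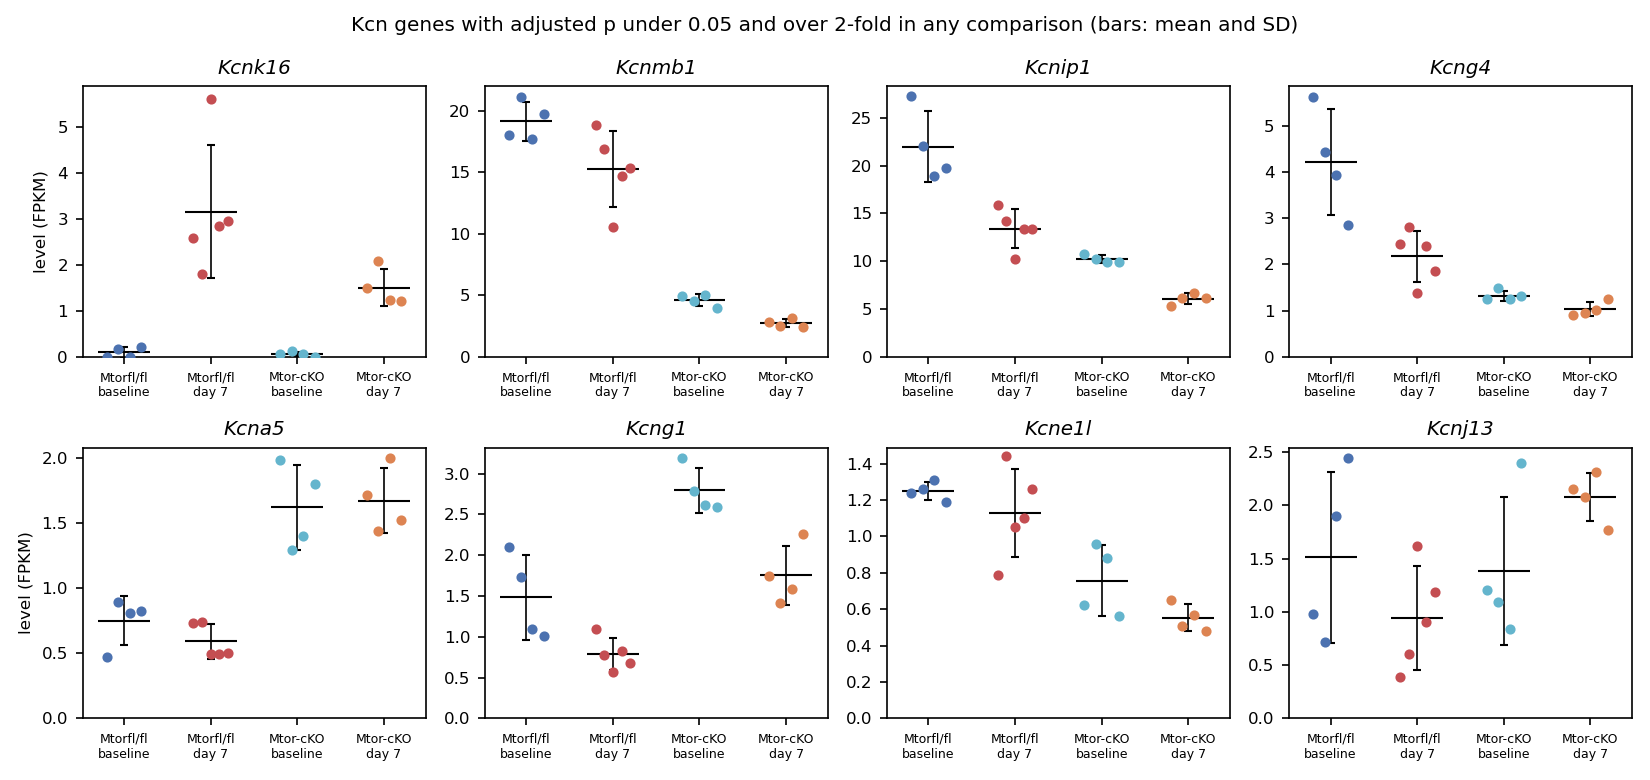
Level (FPKM) of the 8 Kcn genes that passed adjusted p 0.05 and more than 2-fold in any comparison. Points are libraries, and bars show the group mean and SD (n = 4, 5, 4 and 4). Kcnk16 is at or below 0.21 FPKM in every uninjured library and at or above 1.21 FPKM in every injured one, and Kcnmb1 is at or below 5.04 FPKM in every Mtor-cKO library and at or above 10.5 FPKM in every Mtorfl/fl one.

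The genes that fell after injury came from several families. Kcnip1 fell in both genotypes, in Mtorfl/fl (-0.70 ± 0.14, adjusted p = 0.0047) and in Mtor-cKO (-0.80 ± 0.15, adjusted p = 0.00521). Kcns3, a modifier of Kv2 channels, did so too, from 31.1 ± 0.47 to 25.1 ± 2.31 FPKM in Mtorfl/fl (adjusted p = 0.0251) and from 28.2 ± 1.13 to 22.3 ± 0.56 FPKM in Mtor-cKO (adjusted p = 0.0217). The Kcns3 groups did not overlap in either genotype. Its call was lost in Mtorfl/fl without any 1 of baseline replicates 1 and 2 or day 7 replicates 3 and 4 (adjusted p up to 0.0788), and in Mtor-cKO without any 1 of baseline replicates 2 and 3 or day 7 replicates 1 and 2 (up to 0.0745). Kcnk1, a 2-pore channel gene also called TWIK-1, was at 37.1, 30.4, 39.3 and 29.9 FPKM in Mtorfl/fl baseline replicates 1 to 4. At day 7 it was at 22.4, 23.1, 17.5, 21.6 and 20.7 FPKM, below every baseline library (-0.69 ± 0.10, adjusted p = 0.000454). In Mtor-cKO mice its mean was 24.2 FPKM at baseline and 24.2 FPKM at day 7 (-0.02 ± 0.11, adjusted p = 0.921). Kcnk1 passed in Mtorfl/fl under every alternative run.

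A further 5 genes fell in Mtorfl/fl mice with less stable calls. The modifier gene Kcng4 was among them (-0.96 ± 0.22, adjusted p = 0.0121). The erg gene Kcnh7 (-0.94 ± 0.24, adjusted p = 0.0217), the EAG gene Kcnh5 (-0.86 ± 0.23, adjusted p = 0.0268), the modifier Kcng1 (-0.91 ± 0.25, adjusted p = 0.0334) and the SK channel gene Kcnn2 (-0.44 ± 0.13, adjusted p = 0.0431) followed. These 5 calls were lost without Mtorfl/fl baseline replicate 1. Kcnh7 was also lost without baseline replicate 2 or day 7 replicate 3. Kcnh5 was lost without any 1 of baseline replicates 1 to 3 or day 7 replicates 3 and 4, and Kcng1 without any 1 of baseline replicates 1 and 2 or day 7 replicates 2 to 5. Kcnn2 was lost without any 1 of 11 libraries (adjusted p up to 0.111). Over the lost calls of these 5 genes the highest adjusted p was 0.135, for Kcng1. Of 9 markers of large myelinated neurons, 4 fell in Mtorfl/fl (Ldhb, Whrn, Pvalb and Runx3, against 2.58% of all genes). In Mtor-cKO 1 of the 9 fell (Ldhb, against 2.39%). The summed level of the 9 in Mtorfl/fl ran from 909.8 to 1336 FPKM at baseline and from 687 to 834 FPKM at day 7. The part of these neurons in the Kcn values of Mtorfl/fl was not tested. Kcnmb4, the neuronal BK beta subunit gene, was the other gene that rose, from 24.7 to 32.4 FPKM on average (0.40 ± 0.12, adjusted p = 0.0461). Its groups overlapped, and the call was lost without any 1 of 13 libraries (adjusted p up to 0.13). In Mtor-cKO its log2 fold change was 0.41 ± 0.12, adjusted p = 0.0526. Annotated exons of Kcnmb4 shared 20.9% and 10.7% of their bases with the antisense genes Kcnmb4os2 and Kcnmb4os1, so its level is uncertain.

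Loss of Mtor was compared at each time. At baseline 9 of 70 Kcn genes were higher in Mtor-cKO (12.9%, against 7.97% of all genes) and 7 were lower (10%, against 7.91%). At day 7, 6 were higher (8.57%, against 12.9%) and 12 were lower (17.1%, against 13.1%). Without Mtorfl/fl baseline replicates 1 and 2, 24 Kcn genes were higher and 5 lower at baseline, and without replicates 3 and 4, 5 were higher and 12 lower. The median log2 fold change was 0.06 at baseline and 0.05 at day 7, beside -0.01 and 0.03 over all genes. More than 2-fold differences were called for 4 Kcn genes at baseline (5.71%, against 1.65% of all genes) and for 7 at day 7 (10%, against 2.39%). A set of 10 genes passed at both times, each in the same direction, in different mice of the same genotypes. How many of all genes passed at both times was not counted, so these 10 cannot be set against that share. All 7 skeletal muscle markers were higher in Mtor-cKO at day 7, with summed levels of 29.7 to 440.1 FPKM against 2.93 to 33.4 FPKM. Without the 2 libraries richest in them, 5 Kcn genes were higher and 8 lower at day 7. Both genotype calls of Kcnmb1, Kcnip1, Kcng4, Kcna5, Kcnk13, Kcnk3 and Kcnj11 held under every alternative run.

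**Figure D4:**
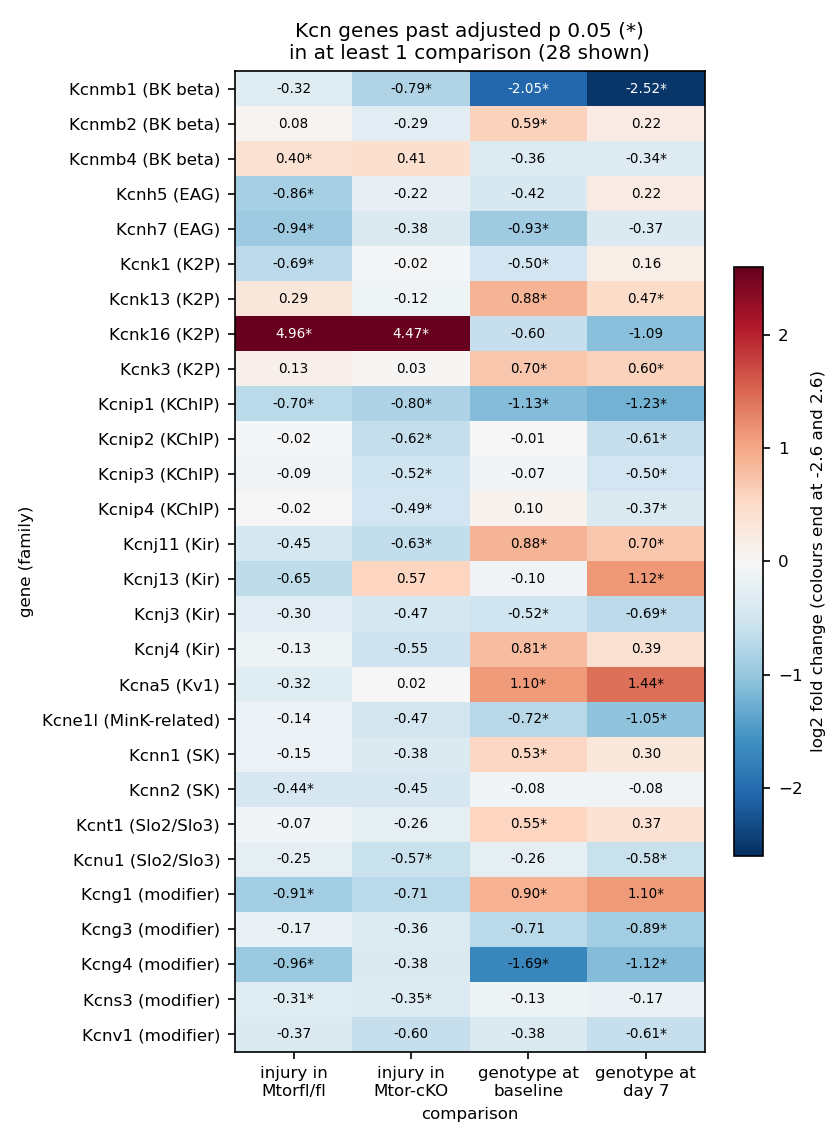
Log2 fold change of 28 of the 29 Kcn genes that passed adjusted p 0.05 in at least 1 comparison, with an asterisk where it passed. Injury columns are day 7 relative to baseline and genotype columns are Mtor-cKO relative to Mtorfl/fl. Kcnk16 stands out in the injury columns at 4.96 and 4.47, and Kcnmb1 in the genotype columns at -2.05 and -2.52.

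Kcnmb1 and Kcnip1, the genes that share a locus, were both lower without Mtor. Kcnmb1 (Gene ID 16533), the BK beta subunit best known from smooth muscle, was at 18.0, 21.1, 17.8 and 19.7 FPKM in Mtorfl/fl baseline replicates 1 to 4 and at 4.95, 4.53, 5.04 and 4.01 FPKM in Mtor-cKO. At day 7 it was at 18.8, 16.9, 10.5, 14.8 and 15.3 FPKM in Mtorfl/fl and at 2.87, 2.49, 3.16 and 2.45 FPKM in Mtor-cKO. No library of either genotype reached the other, and the fold was 4.14 at baseline (-2.05 ± 0.16, adjusted p = 1.36e-06) and 5.73 at day 7 (-2.52 ± 0.16, adjusted p = 6.88e-08). Kcnmb1 also fell with injury in Mtor-cKO (-0.79 ± 0.17, adjusted p = 0.00969), a call lost without the 2 libraries richest in muscle markers. The smooth muscle markers Acta2 and Myh11 were among 6 of 10 vascular markers that were higher in Mtor-cKO at day 7 (against 12.9% of all genes). At baseline 0 of the 10 passed, with a median log2 fold change of -0.21. The part of vessels in the Kcnmb1 values was not tested. Kcnip1 (Gene ID 70357) was at 27.2, 22.0, 18.9 and 19.7 FPKM in Mtorfl/fl baseline replicates 1 to 4 and at 10.8, 10.2, 9.88 and 9.96 FPKM in Mtor-cKO. At day 7 it was at 15.9, 14.2, 10.3, 13.4 and 13.4 FPKM and at 5.30, 6.19, 6.68 and 6.15 FPKM. The genotypes were again separate at each time (-1.13 ± 0.15, adjusted p = 0.000116, and -1.23 ± 0.15, adjusted p = 3.28e-05). The strand setting of the libraries is not given in the sources used here. Reads from Kcnip1 introns within Kcnmb1 therefore could not be told apart from Kcnmb1 reads. The Kcnmb1 values carry that limit, and the annotated exons of the 2 genes shared 0 bases.

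Modifier subunits moved in both directions. Kcng4 was at 5.62, 4.43, 3.93 and 2.85 FPKM in Mtorfl/fl baseline replicates 1 to 4 and at 1.25, 1.48, 1.25 and 1.32 FPKM in Mtor-cKO (-1.69 ± 0.24, adjusted p = 0.000194). After SNI its level was 2.43, 2.80, 1.37, 2.39 and 1.86 FPKM and at 0.90, 0.95, 1.02 and 1.24 FPKM (-1.12 ± 0.23, adjusted p = 0.00247). The genotypes did not overlap at either time. Kcng1 went the other way, from 2.10, 1.73, 1.10 and 1.01 FPKM to 3.19, 2.79, 2.61 and 2.59 FPKM at baseline (0.90 ± 0.25, adjusted p = 0.0235). At day 7 it was at 1.09, 0.78, 0.57, 0.82 and 0.68 FPKM in Mtorfl/fl and at 1.75, 1.41, 1.59 and 2.26 FPKM in Mtor-cKO (1.10 ± 0.25, adjusted p = 0.00389). Its baseline call was lost without any 1 of Mtorfl/fl baseline replicates 3 and 4 or Mtor-cKO baseline replicate 1 (adjusted p up to 0.0741), and its day 7 call held throughout. Kcng3 (-0.89 ± 0.28, adjusted p = 0.0261) and Kcnv1 (-0.61 ± 0.18, adjusted p = 0.0197) were lower in Mtor-cKO at day 7 with overlapping groups. The Kcng3 call was lost without any 1 of Mtorfl/fl day 7 replicates 1, 2 and 4 or Mtor-cKO day 7 replicate 2 (adjusted p up to 0.0853). The Kcnv1 call was lost without any 1 of Mtorfl/fl day 7 replicate 2 or Mtor-cKO day 7 replicates 1 and 2 (up to 0.0594).

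Kcna5, a Kv1 gene, was the voltage-gated pore gene with a genotype difference at both times. It was at 0.47, 0.89, 0.81 and 0.82 FPKM in Mtorfl/fl baseline replicates 1 to 4 and at 1.98, 1.29, 1.40 and 1.80 FPKM in Mtor-cKO (1.10 ± 0.22, adjusted p = 0.0033). After SNI its level was 0.73, 0.74, 0.49, 0.49 and 0.50 FPKM and at 1.71, 1.44, 2.00 and 1.52 FPKM (1.44 ± 0.21, adjusted p = 0.000172). Every Mtor-cKO library was above every Mtorfl/fl library. The abundant Kv1 genes did not pass in edgeR with all libraries, with Kcna1 at -0.42 ± 0.17, adjusted p = 0.117 for genotype at baseline and Kcna2 at -0.58 ± 0.20, adjusted p = 0.0948 for injury in Mtorfl/fl. No Kv2, Kv4, KCNQ or Kv beta gene passed in that fit either. The lowest adjusted p over the injury and genotype comparisons was 0.276 for Kv2, 0.141 for Kv4, 0.215 for KCNQ and 0.074 for Kv beta. The erg gene Kcnh7 was lower in Mtor-cKO at baseline, at 15.4 and 7.95 FPKM on average (-0.93 ± 0.25, adjusted p = 0.0189). This call was lost without Mtorfl/fl baseline replicate 1 or Mtor-cKO baseline replicate 4 (adjusted p up to 0.0662).

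Among channels that act near rest, several were higher without Mtor. Kcnk13 (a 2-pore channel gene, THIK-1) was at 3.07, 3.40, 4.66 and 3.79 FPKM in Mtorfl/fl baseline replicates 1 to 4 and at 5.73, 7.81, 6.99 and 6.85 FPKM in Mtor-cKO (0.88 ± 0.10, adjusted p = 3.61e-05). At day 7 the means were 4.54 and 6.42 FPKM (0.47 ± 0.09, adjusted p = 0.00187). Kcnk3, the acid-sensitive TASK-1, was at 4.96 and 8.05 FPKM at baseline (0.70 ± 0.13, adjusted p = 0.00221) and at 5.39 and 8.36 FPKM at day 7 (0.60 ± 0.13, adjusted p = 0.0026). Groups did not overlap for either gene at either time. Kcnj11, the pore of the ATP-sensitive potassium channel, was at 4.29, 3.83, 3.06 and 3.64 FPKM in Mtorfl/fl baseline replicates 1 to 4 and at 6.90, 6.82, 6.95 and 6.72 FPKM in Mtor-cKO (0.88 ± 0.16, adjusted p = 0.00138). At day 7 its means were 2.70 and 4.42 FPKM (0.70 ± 0.15, adjusted p = 0.00312). It fell with injury in Mtor-cKO (-0.63 ± 0.16, adjusted p = 0.0242), a call lost without any 1 of Mtor-cKO baseline replicates 1, 2 and 3 or day 7 replicates 1 and 4 (adjusted p up to 0.0724). Abcc8, which encodes the sulfonylurea receptor partner of Kcnj11, was also higher in Mtor-cKO, at 2.29 and 4.05 FPKM at baseline (0.81 ± 0.18, adjusted p = 0.00531) and 1.61 and 3.39 FPKM at day 7 (1.03 ± 0.17, adjusted p = 0.000465).

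Other rest channels were lower or passed at 1 time only. Kcnk1 was lower in Mtor-cKO at baseline, at 34.2 and 24.2 FPKM (-0.50 ± 0.11, adjusted p = 0.00465), and did not pass at day 7 (0.16 ± 0.10, adjusted p = 0.249). Kcnj3, a subunit of G protein-gated channels, was lower at baseline, at 7.15 and 4.98 FPKM (-0.52 ± 0.17, adjusted p = 0.0491), and at day 7, at 5.72 and 3.66 FPKM (-0.69 ± 0.17, adjusted p = 0.00626). Its annotated exons shared 31.1% of their bases with the noncoding gene Gm26794 on the opposite strand, so its level is uncertain. The day 7 call held throughout although the groups overlapped, and the baseline call was lost without any 1 of 12 libraries (adjusted p up to 0.125). The Kir gene Kcnj4 was higher at baseline, at 2.35 and 4.31 FPKM (0.81 ± 0.23, adjusted p = 0.0248), a call lost without any 1 of Mtorfl/fl or Mtor-cKO baseline replicates 1, 3 and 4 (adjusted p up to 0.0658).

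Kcnj13, a Kir gene, was higher in Mtor-cKO at day 7. It was at 0.39, 0.60, 1.62, 0.90 and 1.19 FPKM in Mtorfl/fl and at 2.15, 2.08, 2.31 and 1.77 FPKM in Mtor-cKO (1.12 ± 0.37, adjusted p = 0.0356). At baseline it was spread from 0.72 to 2.44 FPKM in Mtorfl/fl and from 0.84 to 2.40 FPKM in Mtor-cKO. In Mtorfl/fl baseline the order of the libraries by Kcnj13 was their order by the summed level of 6 fibroblast markers, which ran from 289 to 849 FPKM. Summed macrophage and erythroid markers gave the same order there, so it was not particular to fibroblasts. In the other groups the orders by Kcnj13 and by fibroblast markers did not match. At Mtorfl/fl day 7, for example, Kcnj13 was highest in replicate 3 and the fibroblast sum in replicate 5. At day 7 the fibroblast sum ran from 287 to 699.5 FPKM in Mtorfl/fl and from 677 to 759 FPKM in Mtor-cKO, and its part in the Kcnj13 value was not tested. The annotated exons of Kcnj13 shared 49.1% of their bases with Gigyf2 on the opposite strand, so its level is uncertain. Gigyf2 itself did not pass at day 7 (0.13 ± 0.07, adjusted p = 0.162). The Kcnj13 call was lost without any 1 of Mtorfl/fl day 7 replicates 1, 2 and 4 or Mtor-cKO day 7 replicates 1 to 3 (adjusted p up to 0.0823).

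Among genes of calcium- and sodium-activated channels, the pore genes Kcnn1 and Kcnt1 passed for genotype at baseline only. BK beta subunit genes passed at each time. At baseline Kcnn1, a small-conductance calcium-activated channel gene, was at 14.1 FPKM in Mtorfl/fl and 20.4 FPKM in Mtor-cKO (0.53 ± 0.12, adjusted p = 0.00543). Kcnt1, the sodium-activated Slack channel, was at 26.1 and 38.8 FPKM (0.55 ± 0.14, adjusted p = 0.0144), and its call was lost without Mtorfl/fl baseline replicates 3 and 4 together. Kcnmb2, a BK beta subunit gene, was at 1.66 and 2.51 FPKM (0.59 ± 0.15, adjusted p = 0.0131, or adjusted p = 0.0524 without Mtor-cKO baseline replicate 3). None of the 3 passed at day 7, where Kcnn1 was at 0.30 ± 0.11, adjusted p = 0.0522 and Kcnt1 at 0.37 ± 0.13, adjusted p = 0.0551, and none passed the interaction test. The BK pore gene Kcnma1 passed in no comparison in edgeR with all libraries, with group means of 6.94 to 7.92 FPKM. Kcnmb4 was lower in Mtor-cKO at day 7 (-0.34 ± 0.12, adjusted p = 0.0371) with overlapping groups, a call lost without any 1 of 7 libraries (adjusted p up to 0.0944). Kcnu1, which encodes the Slo3 channel best known from sperm, was lower in Mtor-cKO at day 7, at 1.76 and 1.2 FPKM (-0.58 ± 0.15, adjusted p = 0.0102). It also fell with injury in Mtor-cKO (-0.57 ± 0.16, adjusted p = 0.04), with overlapping groups and a call lost without any 1 of 6 Mtor-cKO libraries (adjusted p up to 0.153).

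Kcne1l, a MinK-related subunit gene on the X chromosome also called Kcne5, lay close to the expression threshold. It was at 1.24, 1.26, 1.31 and 1.19 FPKM in Mtorfl/fl baseline replicates 1 to 4 and at 0.62, 0.96, 0.88 and 0.56 FPKM in Mtor-cKO (-0.72 ± 0.23, adjusted p = 0.041). At day 7 it was at 0.79, 1.44, 1.05, 1.10 and 1.26 FPKM and at 0.65, 0.51, 0.57 and 0.48 FPKM (-1.05 ± 0.22, adjusted p = 0.00284). The genotypes did not overlap at either time, and the Y-linked gene Ddx3y lay between 10.1 and 13.5 FPKM in all 17 libraries. The baseline call was lost without any 1 of 10 libraries (adjusted p up to 0.114) and the day 7 call held throughout.

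The KChIP genes moved together in Mtor-cKO mice. All 4 fell after injury there, where 2.39% of all genes fell, and in Mtorfl/fl mice Kcnip1 passed. No KChIP gene passed the interaction test in edgeR with all libraries (adjusted p = 0.125 for Kcnip2, 0.206 for Kcnip4, 0.395 for Kcnip3 and 0.889 for Kcnip1), so a difference between genotypes in this response was not shown by that test. Kcnip2 was at 50.3, 61.3, 60.1 and 66.2 FPKM in Mtorfl/fl baseline replicates 1 to 4 and at 62.8, 67.7, 45.5, 57.8 and 55.7 FPKM at day 7. In Mtor-cKO it was at 56.8, 60.2, 60.0 and 58.5 FPKM at baseline and at 39.1, 37.3, 40.2 and 39.3 FPKM at day 7. The injured Mtor-cKO libraries lay below all others. The log2 fold change was -0.62 ± 0.11, adjusted p = 0.00281 for injury in Mtor-cKO, -0.61 ± 0.10, adjusted p = 0.000635 for genotype at day 7 and -0.02 ± 0.10, adjusted p = 0.949 for injury in Mtorfl/fl. Kcnip3, also known as DREAM, a transcriptional repressor of prodynorphin, was at 85.6 ± 3.57 FPKM in Mtor-cKO at baseline and 61.1 ± 3.24 FPKM at day 7 (-0.52 ± 0.15, adjusted p = 0.0489). Kcnip4 was at 114 ± 8.23 and 82.5 ± 5.80 FPKM (-0.49 ± 0.11, adjusted p = 0.0126). For both, the injured Mtor-cKO group also lay below the injured Mtorfl/fl group without overlap (-0.50 ± 0.14, adjusted p = 0.0178, and -0.37 ± 0.10, adjusted p = 0.0141). Both Kcnip2 calls held throughout. The Kcnip3 injury call was lost without any 1 of 10 libraries (adjusted p up to 0.142) and its day 7 call without Mtor-cKO day 7 replicate 1 (adjusted p = 0.0544). The Kcnip4 injury call was lost without Mtor-cKO baseline replicate 2 or day 7 replicate 2 (adjusted p up to 0.0545). Without the 2 libraries richest in muscle markers the injury calls of Kcnip1, Kcnip3 and Kcnip4 in Mtor-cKO were lost. The Kv4 genes Kcnd1 and Kcnd3 passed in no comparison in edgeR with all libraries. Of 11 neuronal markers, 4 (Uchl1, Avil, Isl1 and Snap25) were lower in Mtor-cKO at day 7 and 0 were higher by edgeR. Avil is also the gene that drove Cre, which only Mtor-cKO mice carried. The part of that allele in the Avil level was not tested. At baseline 1 of the 11 was higher and 1 lower (Prph and Avil). At day 7, of 7 peptidergic neuron markers 4 were lower and 0 higher (median -0.43), and of 8 nonpeptidergic markers 5 were lower and 1 higher (median -0.47). Other neuron lists went the other way. Of 9 markers of large myelinated neurons 2 were lower and 3 higher (median 0.25). Of 3 tested markers of C-fiber low-threshold mechanoreceptors 0 passed (median 0.37). Over all genes 13.1% were lower and 12.9% higher. The part of these neuronal differences in the KChIP values was not tested.

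**Figure D5:**
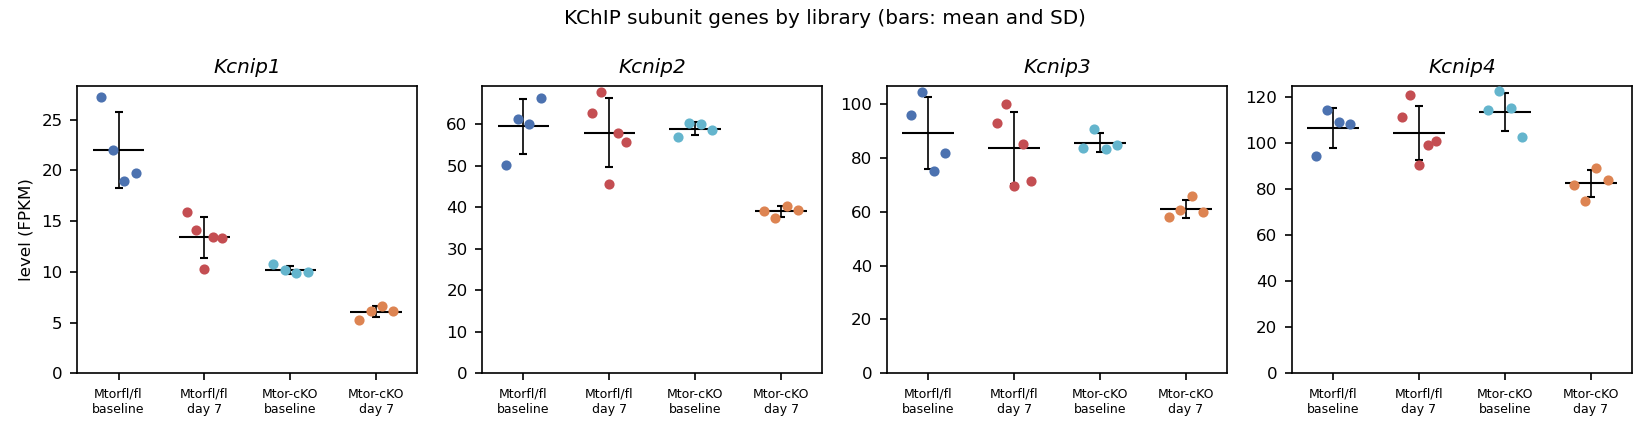
Level (FPKM) of the 4 KChIP genes in each library, with group mean and SD (n = 4, 5, 4 and 4). Kcnip2 is at 37.3 to 40.2 FPKM in the 4 injured Mtor-cKO libraries and at 45.5 FPKM or more in all others, whereas Kcnip1 is lower in Mtor-cKO at both times.

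Whether injury acted differently in the 2 genotypes was tested directly. No Kcn gene passed the interaction test in edgeR, against 0.082% of all genes (11 of 13408), while 7 of 70 had an unadjusted p under 0.05 (10%, against 13% of all genes). The lowest p belonged to Kcnk1 (0.67 ± 0.15, adjusted p = 0.104), Kcnip2 (-0.60 ± 0.15, adjusted p = 0.125) and Kcnip4 (-0.47 ± 0.15, adjusted p = 0.206). DESeq2 called these 3 genes, Kcnk1 with adjusted p = 0.00564, Kcnip2 with adjusted p = 0.0095 and Kcnip4 with adjusted p = 0.0487. In edgeR, Kcnip2 passed without Mtorfl/fl day 7 replicate 3 (adjusted p = 0.0435), and 7 Kcn genes passed without Mtorfl/fl baseline replicates 1 and 2, namely Kcnk1, Kcnip2, Kcnip3, Kcnip4, Kcnd1, Kcnma1 and Kcnq3. For Kcnk16 the interaction was -0.50 ± 1.33, adjusted p = 0.913.

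Of 30 Kcn genes listed for a known role in pain, 26 were tested. In Mtorfl/fl injury 1 fell (against 2.58% of all genes) and 0 rose by edgeR, with a median of -0.16, and in Mtor-cKO injury 3 fell (against 2.39%) and 0 rose, with a median of -0.31. In Mtor-cKO relative to Mtorfl/fl, 3 were higher (against 7.97%) and 2 lower (against 7.91%) at baseline, with a median of 0.10. At day 7, 1 was higher (against 12.9%) and 4 were lower (against 13.1%), with a median of -0.01. Several of these counts lie near or below the share over all genes. The members that passed were the KChIP genes Kcnip1, Kcnip3 and Kcnip4 together with Kcnj3, Kcnk3, Kcnn1 and Kcnt1. Kcns1, a modifier subunit gene linked to pain sensitivity, missed the threshold, with values of -0.57 ± 0.18, adjusted p = 0.0669 for injury in Mtorfl/fl and -0.55 ± 0.19, adjusted p = 0.0616 for genotype at baseline. The 2-pore channel gene Kcnk18 (TRESK) was at 5.26 ± 1.10 FPKM in Mtorfl/fl and 8.06 ± 0.70 FPKM in Mtor-cKO at baseline (0.60 ± 0.22, adjusted p = 0.0727). KCNQ genes, which carry the M-current, had log2 fold changes between -0.31 and 0.51 over the injury and genotype comparisons.

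Genes whose products bind, place or accompany these channels formed a list of 31, of which 28 were tested. In Mtorfl/fl injury 1 fell (against 2.58% of all genes) and 0 rose (against 4.66%). This was Lgi3, at 40.7 and 22.4 FPKM before and after (-0.86 ± 0.23, adjusted p = 0.03). In Mtor-cKO injury 1 rose (against 4.57%) and 0 fell (against 2.39%). This was Abcc9, a sulfonylurea receptor gene, at 0.70 and 1.21 FPKM (0.77 ± 0.21, adjusted p = 0.0358). With 1 call of 28 in each genotype, these counts are not read as a result about the list. In Mtor-cKO 3 of the 28 were higher and 2 lower at baseline (against 7.97% and 7.91% of all genes), and 6 were higher and 3 lower at day 7 (against 12.9% and 13.1%), so the counts of lower genes do not exceed the share over all genes. Dpp10, a Kv4 auxiliary subunit gene, was lower at baseline, at 37.9 and 23.9 FPKM (-0.67 ± 0.16, adjusted p = 0.00875), and at day 7, at 30.2 and 17.3 FPKM (-0.84 ± 0.15, adjusted p = 0.000925). Lgi1, whose secreted product joins Kv1 complexes, was lower at both times as well (-0.46 ± 0.14, adjusted p = 0.0355, and -0.77 ± 0.14, adjusted p = 0.000807). The pacemaker channel gene Hcn3 was higher at both times (0.36 ± 0.12, adjusted p = 0.0495, and 0.44 ± 0.11, adjusted p = 0.00829), as was Hcn2 at day 7 (0.50 ± 0.14, adjusted p = 0.0147) and the sodium leak channel gene Nalcn at baseline (0.56 ± 0.17, adjusted p = 0.0393). At day 7 the scaffold genes Dlg1 and Dlg4 and the receptor gene Abcc9 were also higher and Vapb was lower.

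A list of 9 genes was read in the same way. It held genes with a reported part in silencing neuronal or potassium channel genes, and the kinase gene Cdk5. Rest, a repressor of neuronal genes, rose with injury in Mtor-cKO, from 0.73 to 1.19 FPKM (0.68 ± 0.15, adjusted p = 0.0132). In Mtorfl/fl injury none passed in edgeR. At day 7, 4 of the 9 were higher (against 12.9% of all genes) and 1 was lower (against 13.1%). Dnmt1 (0.53 ± 0.13, adjusted p = 0.00656), Rest (0.53 ± 0.14, adjusted p = 0.0122), Mbd1 and Ehmt2 were higher in Mtor-cKO and Cdk5 was lower (-0.30 ± 0.06, adjusted p = 0.00135). Cdk5 was also lower at baseline (-0.22 ± 0.06, adjusted p = 0.0213). These are levels of whole ganglia, and no relation to the Kcn genes was tested.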

How the data were processed

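Total RNA of 17 DRG libraries was sequenced on the BGISEQ-500 platform. Per the labels, the authors' processing named HISAT2 2.0.4, Bowtie2 2.2.5 and RSEM 1.2.12. The labels give mm9 and the study's methods a later mouse build, so gene positions from the files are not printed. The authors deposited expected counts per gene (RSEM estimates, not normalized) and FPKM values (scaled by the authors to transcript length and library size). Of the deposited expected counts 34.21% were not whole and all were rounded. A set of 20 symbols was mended by gene ID, 1 entry without a name was left out, and 8 columns of 2 libraries that no label names were not used.

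The 13408 genes whose mean reached 1 FPKM in any group were fitted with edgeR 4.0.16 (TMM, quasi-likelihood F test, 1 coefficient per group, all 17 libraries) in R 4.3.3, and p-values were adjusted by Benjamini-Hochberg over all of them. A gene was called at adjusted p under 0.05, and standard errors are approximate, from the log2 fold change and its F value. The procedure was tested on simulated data. DESeq2 1.42.0, limma 3.58.1 on log2(FPKM + 0.1), other filters and scalings, a replicate block and the loss of each library were alternatives, and 3 ways of leaving out a pair of libraries were added after seeing the data. Depth was 17060876 to 21076542 expected counts, so a gene at a few counts has wide counting error. Strandedness is not given in the sources used here.

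Kcn genes called in any comparison, those over 2-fold with every library's value, the 10 most abundant, the 4 nearest the threshold on each side and called partners and regulators were named. Values in every library of Kcnk1, Kcnk13, Kcnj11 and Kcnip2 were added. The result of 1 called Kcn gene is not reported here. The members and lists were chosen with earlier results of these data known. Replicate libraries came from separate mice. Same-numbered libraries are different mice whose deviations did not correlate throughout (-0.482 to 0.652), so numbers were not treated as pairs. Between Mtorfl/fl baseline and day 7 the correlations were 0.644 and 0.644 for replicates 1 and 2. They were 0.093 and 0.209 for replicates 3 and 4, and the cause was not tested.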

Additional observations from a re-analysis of the deposited data

How the results depend on the processing

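Of 54 calls of a Kcn gene in a comparison, 26 kept direction and call under all 27 alternatives, 28 lost the call under 1 or more, and 0 changed direction. With each library left out in turn, called Kcn genes numbered 3 to 16 for injury in Mtorfl/fl (11 with all libraries), 4 to 13 for injury in Mtor-cKO (9), 12 to 19 for genotype at baseline (16), 14 to 21 for genotype at day 7 (18) and 0 to 1 for the interaction (0). Without Mtorfl/fl baseline replicates 1 and 2 they numbered 7 (5 higher, 2 lower), 16, 29 (24 higher, 5 lower) and 7 for injury in Mtorfl/fl, injury in Mtor-cKO, genotype at baseline and the interaction. Without baseline replicates 3 and 4 they numbered 24 and 17 for injury in Mtorfl/fl and Mtor-cKO. Without the 2 libraries highest in muscle markers, 2 remained for injury in Mtor-cKO. These pairs were chosen after seeing the data. A fit of only the groups compared gave 2 for injury in Mtorfl/fl and 35 for injury in Mtor-cKO. DESeq2 gave 19 for injury in Mtor-cKO and 3 for the interaction. The replicate block gave 18 for injury in Mtor-cKO, 10 for injury in Mtorfl/fl, 19 and 21 for genotype at baseline and day 7, and 0 for the interaction. limma on log2 FPKM split genotype at day 7 into 11 higher and 10 lower, against 6 and 12. A filter of 0.5 or 2 FPKM would have passed 77 or 57 Kcn genes. The cause of these shifts was not tested. Kcnk16 before injury rests on at most 3 counts a library, so its fold is known only within its counting interval.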
